A study of Mus musculus with 4 samples.

Results

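The 84 cytosolic ribosomal protein genes were followed through single-cell RNA libraries of MC38 tumours. They were chosen by symbol alone, as Rpl or Rps followed by a digit with Rplp0, Rplp1, Rplp2 and Rpsa, leaving out 7 pseudogenes and 8 Rps6k kinase symbols. They are 84 of the 13518 genes of the deposited table. Of these, 46 encode large subunit proteins and 31 small subunit proteins. The other members are 6 paralogues (Rpl22l1, Rpl36al, Rpl39l, Rpl7l1, Rps27l and Rps27rt) and Rps19bp1, whose symbol fits the rule but whose product binds a ribosomal protein and is not part of the ribosome.

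MC38, a mouse colon carcinoma line, was grown orthotopically in C57BL/6 mice, and all 4 groups carried these tumours. The groups were vehicle control, anti-PD-1 (3 times a week, 5 doses in total), Atractylenolide I (ATT-I, a plant sesquiterpenoid, 50 mg/kg daily) and both agents together (the combination). Tumours were taken 2 weeks after the first treatment, and 5 were pooled into 1 droplet library per group. The vehicle sample's own entry reads untreated, while the shared protocol speaks of a vehicle. With 1 library per group, a difference between groups compares libraries, and treatment, pool and library cannot be told apart.

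The ribosome is built from a large and a small subunit, each made of ribosomal RNA and a set of these proteins. Their mRNAs are among the most abundant of a growing cell, and most of them are known to begin with a C followed by a run of pyrimidines, the terminal oligopyrimidine (TOP) start, through which mTOR signalling sets their translation. In T cells, ribosome production is known to rise when a resting cell is activated. A few ribosomal proteins have paralogues that can take their place in the ribosome, such as Rpl22l1 for Rpl22 and Rps27l for Rps27. Rps27l is also known as a target of p53.

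The vehicle library held 155 cells, anti-PD-1 12562, ATT-I 297 and the combination 199, with 3099824, 108628720, 2878354 and 5232592 UMIs in that order (unique molecular identifiers, 1 per captured RNA molecule). The median cell held 16129, 7148, 6828 and 23927 UMIs, so cells of the combination and of vehicle held more UMIs. Of the cells, 67.1%, 32.3%, 28.3% and 74.9% had a UMI of Mki67, the marker of cycling cells. Only 1 cell barcode occurred in more than 1 library. The 7 T cell markers summed to between 47.6 and 76.3 UMIs per 10000 UMIs of a cell, and epithelial tumour markers to at most 0.366, so the cells carried T cell RNA although the labels name the tumour as the source. Haemoglobin genes summed to 30.5 UMIs per 10000 in the ATT-I cells and to at most 0.981 elsewhere. B cell markers lay at or near 0, with Cd79a at 0 in vehicle and in the combination. NK markers summed to between 1.86 and 3.86. Monocyte or macrophage markers summed to at most 0.325 and fibroblast markers to at most 0.503.

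The start sites of some of the genes on which the results turn are shown first, because the TOP start is the sequence feature this family is known for. The windows below are RefSeq start sites in build GRCm38.p6, from 10 bases before to 20 bases from the annotated start, 5′ to 3′ on the gene's strand. Capitals mark a C followed by at least 4 pyrimidines that begins within 5 bases of the start.
Rps27 (chr3:90213629-90213658, minus strand): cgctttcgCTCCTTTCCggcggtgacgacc
Rps27rt (chr9:114982720-114982749, minus strand): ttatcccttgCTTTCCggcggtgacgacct
Rps27l (chr9:66946076-66946105, plus strand): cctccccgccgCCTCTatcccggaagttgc
Rps21 (chr2:180257369-180257398, plus strand): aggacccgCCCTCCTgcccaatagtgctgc
Rps15a (chr7:118116128-118116157, minus strand): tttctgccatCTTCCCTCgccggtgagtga
Rps24 (chr14:24490668-24490697, plus strand): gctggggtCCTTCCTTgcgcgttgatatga
Rpl13a (chr7:45128726-45128755, minus strand): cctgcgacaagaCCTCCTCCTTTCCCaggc
Rps28 (chr17:33824543-33824572, minus strand): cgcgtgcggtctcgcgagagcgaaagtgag

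The window of Rps28 holds no such tract, and Rps27l, Rps21 and Rps24 each have a second RefSeq start without one. Among genes named below and not shown, Rpl27, Rpl36al, Rps4x, Rpl11, Rpl22, Rplp0, Rpl41, Rpsa, Rpl36, Rpl7l1, Rps19bp1 and Rpl39l have no tract. Rpl12, Rpl28, Rpl31, Rpl38, Rpl22l1, Rps2 and Rpl18 have one, and other named genes are not listed. The windows shown hold a tract more often than those of the family do. Of the 84 genes, 64 had a RefSeq promoter entry. The motif C followed by 4 or more letters that are C or T was searched on the gene's own strand only. Among the 57 structural members with an entry (paralogues and Rps19bp1 set aside) it began within 5 bases of the start in 27, or 47.4%, against 23.8% of the 10043 other genes of the table. At the exact annotated start it stood in 13, or 22.8%, against 3.02%. Rps27 and Rps27rt share a run of 19 bases across the end of the tract, and Rps27rt, an intronless copy, shares 91.1% of its 50-base words with Rps27 transcripts (GENCODE M21). The counts of Rps27 and Rps27rt can therefore not be told apart with certainty. Rps27l shares none of its 904 such words with Rps27, and neither do the other 4 paralogues with their parents, so no 50-base stretch is common to these pairs.

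Ribosomal protein genes took up a large share of all UMIs, and the share differed between the libraries. The share of a cell's UMIs averaged 22.5% with vehicle (SD 7.0, n = 155 cells), 29.0% with anti-PD-1 (SD 5.91, n = 12562), 32.2% with ATT-I (SD 8.12, n = 297) and 23.3% with both agents (SD 5.71, n = 199). ATT-I and anti-PD-1 were high, vehicle and the combination low, and single cells overlapped, from 4.32% to 39.9% in vehicle and from 11.02% to 56.6% in ATT-I. The middle 50% of cells did not, with 18% to 26.3% in vehicle and 26.7% to 36.4% in ATT-I. The order ATT-I, anti-PD-1, then vehicle and combination held in the CD8, CD4 conventional, Foxp3, Mki67 and Tcf7 or Havcr2 gates. These gates overlap, and the plot of shares by gate shows them. A gate is a set of cells chosen by UMIs: CD8 cells have Cd8a or Cd8b1 without Cd4 and Foxp3, CD4 conventional cells have Cd4 alone, and Foxp3 cells have Foxp3, the regulatory T cell gene, without Cd8a and Cd8b1. The libraries with the lower share were those with more Mki67-positive cells. Within Mki67-positive cells alone the means were 21.6%, 27.4%, 28.7% and 23.2%, in the library order given above. These cells held medians of 21838, 10809, 15324 and 27755 UMIs in that order. The part of cycling cells in the difference between libraries was not tested.

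**Figure D1:**
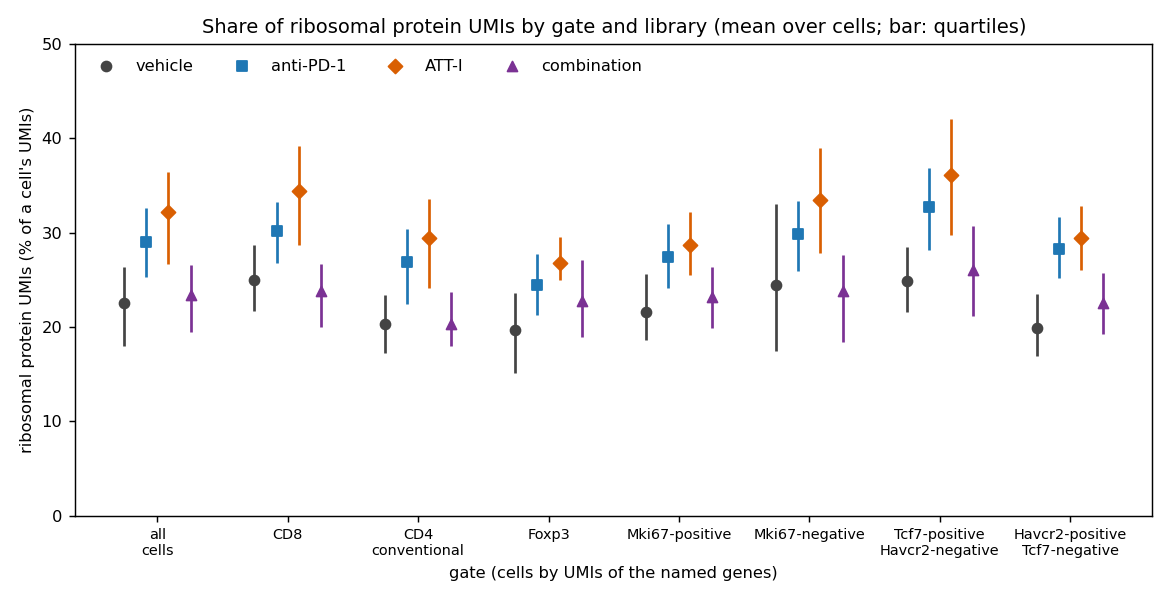
Mean share of ribosomal protein UMIs in a cell's UMIs (vertical axis, percent) for each gate (horizontal axis) and library (symbol), with a bar from the lower to the upper quartile of cells. ATT-I and anti-PD-1 lie above vehicle and the combination in each gate, and the share is higher in CD8 than in CD4 conventional cells of every library.

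Depth moved with the share most in vehicle. There the share rose from 17.0% in the 11 cells under 5000 UMIs to 25.3% in the 62 cells of 20000 UMIs and over. The Pearson correlation of log depth with the share was 0.40 over 155 cells that share 1 library. In the other libraries that correlation was 0.13, 0.024 and 0.16 (anti-PD-1, ATT-I, combination). The Spearman correlation of depth with the share was 0.43 with vehicle, 0.15 with anti-PD-1, 0.071 with ATT-I and 0.26 with both agents. Among cells of 10000 to 20000 UMIs the mean was 22.5% with vehicle, 29.4% with anti-PD-1, 32.5% with ATT-I and 22.4% with both agents, so the gap between libraries was there in this depth class too. Mitochondrially encoded UMIs made up 4.00%, 2.28%, 3.93% and 3.55% of a cell on average, and their part in the difference was not tested.

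Single genes mostly followed the share, and ATT-I and anti-PD-1 were the highest pair of libraries for 60 of the 84 genes. Vehicle was lowest for 50. The genes with the highest mean of the 4 library levels, each library weighted equally and levels not divided by transcript length, were Rps24, Rps15a and Rps29, all of the small subunit. Rps24 averaged 51.1 UMIs per 10000 with vehicle, 84.4 with anti-PD-1, 79.5 with ATT-I and 52.5 with both agents. Rps15a, in the same order, had 45.9, 80.6, 71.1 and 48.9. Rps29, a short zinc-binding protein of the small subunit, broke the pattern with 58.9, 44.5, 81.6 and 55.4, high in ATT-I and lowest in anti-PD-1. The smallest values were those of Rpl39l, a testis-enriched copy of Rpl39, at 0.043, 0.011, 0.016 and 0 in the combination.

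In the anti-PD-1 library most ribosomal protein genes were higher than in the vehicle library, while a few were much lower. The comparison covered the 83 genes detected in 10% or more of cells on 1 side at least (Rpl39l was not). Of these, 48 were higher by a ratio of at least 5 to 4 (log2 0.32) with anti-PD-1 and 10 lower by the same. Over all 8475 genes compared, 15.2% were higher and 51.1% lower by that rule. The median was 0.43 log2 for the ribosomal protein genes and −0.34 for all genes. Relative to the median of all genes, 66 were higher and 5 lower, where 32.6% and 32.1% of all genes were. In CD8 cells alone 43 were higher and 12 lower (19.9% and 50.6% of all genes). The 46 large subunit genes had 28 higher and 6 lower, and the 31 small subunit genes 20 and 3. These counts carry no test, since each group is 1 library, and the intervals below cover counting error only.

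Rpl17 had the largest ratio of the 83 genes, with a level of 49.2 UMIs per 10000 with anti-PD-1 and 27.9 with vehicle (log2 0.82, 95% counting interval 0.78 to 0.86). Rps15a followed at 0.81 and Rps4x, the X-linked copy of the small subunit protein S4, at 0.79 (42.6 against 24.6). Another group of genes went the other way. Rps28, a small subunit protein, had 14.7 UMIs per 10000 with anti-PD-1 and 30.4 with vehicle (−1.05, −1.09 to −1.01). Rpl27 had 9.04 against 16.5 (−0.87), Rpl36al 2.60 against 4.61 (−0.83) and Rpl13a 4.65 against 8.17 (−0.81). These 4 genes were lower than in vehicle in each of the 10 gates compared: Rps28 ranged from −1.28 to −0.89 over them, and Rpl27 from −1.08 to −0.73. The gates overlap and hold cells of the same pair of libraries, so they do not repeat the comparison independently. In cells of 5000 to 20000 UMIs Rps28 was at −0.83 and Rpl27 at −0.88.

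In ATT-I against vehicle most genes of both subunits were higher. Of the 83 genes 69 were higher and 5 lower, against 9.7% and 53.6% of all 8484 genes, with a median of 0.52 against −0.38 for all genes. The large subunit had 41 genes higher and 2 lower, and the small subunit 25 and 1. In CD8 cells 64 were higher and 5 lower (15.1% and 53.5% of all genes). Rps27 had 83.6 UMIs per 10000 with ATT-I, against 42.0 with anti-PD-1, 41.2 with vehicle and 35.2 with both agents. Its log2 ratio to vehicle was 1.02 (0.98 to 1.06), and over the 10 overlapping gates it ran from 0.52 to 1.27. Rpl17 was at 0.87 and Rpl29, a small protein of the large subunit, at 0.86 (21.4 against 11.7). Among the lower genes were Rps27l (1.54 against 2.61, −0.77), Rpl23a (16.2 against 22.8, −0.49), Rpl31 (7.58 against 9.84, −0.38) and Rps19bp1 (0.213 against 0.272, −0.35, interval −0.91 to 0.21). For Rps19bp1, with few UMIs, a difference was not detectable in all cells at this depth. In CD8 cells it was at −0.91 (−1.79 to −0.03, from 23 and 36 UMIs), and in Foxp3 cells at 0.06 (−1.20 to 1.32). Rps28, Rpl27, Rpl36al and Rpl13a, low in anti-PD-1, were high in ATT-I, at 0.53, 0.41, 0.52 and 0.71 against vehicle. Both comparisons share the vehicle library.

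**Figure D2:**
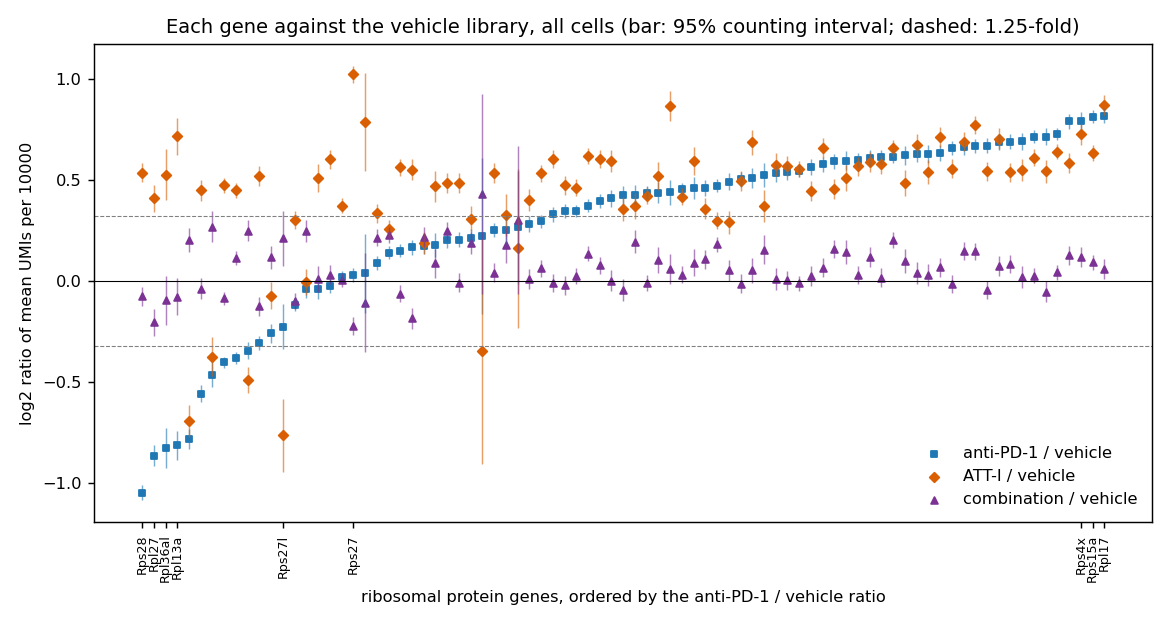
Log2 ratio to the vehicle library (vertical axis) for the 83 genes that passed, ordered along the horizontal axis by the anti-PD-1 ratio, in anti-PD-1 (squares), ATT-I (diamonds) and the combination (triangles), with 95% counting intervals and dashed lines at log2 0.32 and −0.32. Rps28 at the left is at −1.05 in anti-PD-1 and 0.53 in ATT-I, while the combination lies between −0.22 and 0.43 for each gene.

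The combination lay close to vehicle. Of 83 genes 1 was higher and 0 lower, against 13.3% and 32.2% of 8853 genes, with a median of 0.05 against −0.11 for all genes. In CD8 cells the counts were 1 and 0 as well (17.8% and 34.8% of all genes). The gene called was Rps19bp1 (0.43, interval −0.07 to 0.92), whose interval holds 0, and next were Rpl7l1 (0.30, −0.06 to 0.67) and Rpl31 (0.27, 0.19 to 0.34). Rps27 was lowest at −0.22 (−0.27 to −0.18), then Rpl27 at −0.20 and Rpl36 at −0.19. Within CD8 cells of 5000 to 20000 UMIs, of which there were 29 and 16, 19 genes were lower and 1 higher (37.4% and 30.4% of all genes). The whole CD8 gate held 116 and 48 cells, so depth and cell number cannot be told apart in this count.

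Set against the single treatments, most ribosomal protein mRNAs made up a lower share of a cell's UMIs in the combination. The median cell held 23927 UMIs in the combination, 7148 with anti-PD-1 and 6828 with ATT-I. A lower share is therefore not a lower amount per cell, and amounts per cell were not compared. Against anti-PD-1, 44 genes were lower and 11 higher (19.3% and 41.2% of 8603 genes), with a median of −0.35 against 0.19 for all genes. In CD8 cells 45 were lower and 11 higher (20.5% and 41.4%). Rpl11, Rpl17 and Rps15a were lowest at −0.77, −0.76 and −0.72. Rps28 (28.8 against 14.7, 0.97) and Rpl13a (7.73 against 4.65, 0.73) were among the highest. Both were low in anti-PD-1 against vehicle, and the 2 comparisons share the anti-PD-1 library. Rps27l was at 0.44 here and turned to −0.38 in cells of 5000 to 20000 UMIs. Against ATT-I, 63 genes were lower and 5 higher (15.8% and 45.3% of 8612 genes), with a median of −0.49 against 0.25. In CD8 cells 67 were lower and 5 higher (18.1% and 47.3%). Rps27 was at −1.25 (−1.29 to −1.21), Rps27rt at −0.90 and Rpl17 at −0.81, while Rps27l was at 0.98 and Rps19bp1 at 0.78 (0.27 to 1.29).

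Transcript length, which the rule did not use, was correlated with the anti-PD-1 ratio across the structural members, with exceptions. The 77 structural members had annotated transcripts of 345 to 5179 nt with a median of 886 nt, against 2965 nt for other genes. The longest were those of Rps15a (5179 nt), Rps20 (3706 nt) and Rpl18 (2989 nt). Whether the cells expressed these annotated forms was not tested, and Rps15a was also among the highest anti-PD-1 ratios. Across these 77 genes the Spearman correlation of length with the anti-PD-1 to vehicle ratio was 0.45, while over 8165 other genes it was −0.50. The level of a gene moved with the ratio too, with a correlation of 0.38 over the 77 genes. These are correlations across genes of 2 libraries, and genes are not replicates. The 9 members under 500 nt had a median of −0.04, the 8 from 500 to below 600 nt 0.14, and the 16 from 600 to below 800 nt 0.47. Other genes of that last class had a median of 0.32 and those of 2500 nt and over −0.59. In ATT-I against vehicle the members showed little of this, with a correlation of 0.11 and medians between 0.47 and 0.57 in each length class. Over 8175 other genes the correlation was −0.44, close to that in anti-PD-1, and those from 600 to below 800 nt had a median of 0.00. The part of length in the anti-PD-1 ratios was not tested.

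**Figure D3:**
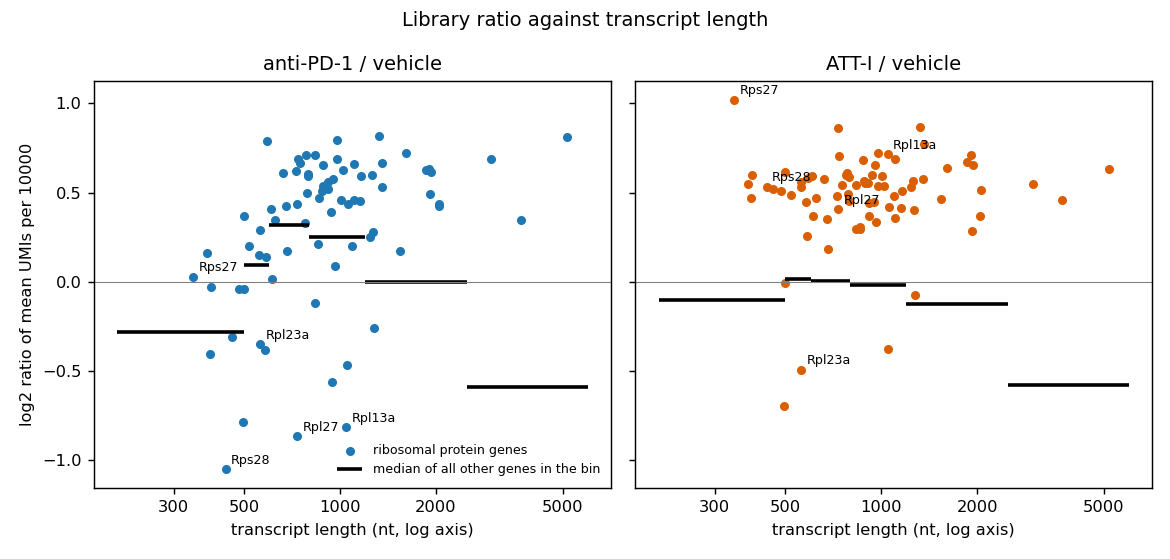
Log2 ratio to vehicle (vertical axis) against transcript length in nt (horizontal, log axis) for the 77 structural members in anti-PD-1 (left) and ATT-I (right), with black bars for the median of all other genes in each length class (the last class, 2500 nt and over, runs beyond the axis). Members under 500 nt have a median of −0.04 in anti-PD-1 and 0.53 in ATT-I.

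The gates allow a replicated question: which ribosomal protein genes differ between kinds of T cell within a library. Each library gives 1 difference, the 4 libraries serve as replicates, and limma tests each gene over all genes with at least 0.5 UMIs per 10000, with the library as a block and Benjamini-Hochberg adjustment over the genes tested. A gene is called at an adjusted p under 0.05. The libraries differ in treatment, so the p-values measure only the spread between these 4 libraries. The contrasts draw on overlapping cells of the same libraries, so they do not repeat each other independently. Mki67 was not held fixed in the other gates. The number of calls rests on the library block and on the filter for low levels. Without the block 1 gene rose and 0 fell for Mki67 and 0 passed in the other 4 contrasts (limma, with 2 to 8 of the genes at an unadjusted p under 0.05 in each). With every listed gene tested, 1 rose and 7 fell for Mki67, 9 rose in CD8 against CD4 conventional cells, and 0 passed in the other 3 contrasts (limma, with 10, 60 and 32 at an unadjusted p under 0.05).

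**Figure D4:**
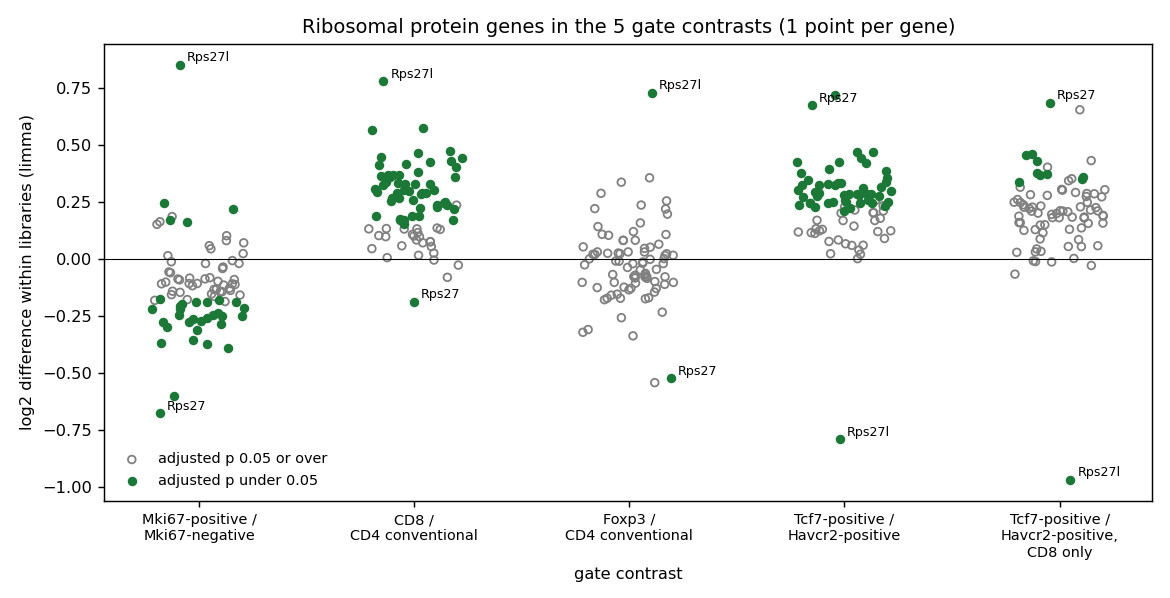
Log2 difference from limma (vertical axis) for each ribosomal protein gene (point) in the 5 gate contrasts (horizontal axis), filled where the adjusted p is under 0.05. Most genes form 1 band per contrast, while Rps27 and Rps27l sit at opposite ends, for example at −0.68 and 0.85 for Mki67.

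Cells with Mki67 held less ribosomal protein RNA as a share and more Rps27l. The share was 21.6% in Mki67-positive and 24.4% in Mki67-negative cells of the vehicle library, 27.4% and 29.8% with anti-PD-1, 28.7% and 33.5% with ATT-I, and 23.2% and 23.8% with both agents, lower in 4 of 4 libraries. Of 82 genes tested 29 fell and 5 rose with Mki67, against 7.92% and 15.9% of all 2866 genes. The median was −0.14 log2 against 0.03 for all genes. The number that fell was 16 without vehicle, 18 without anti-PD-1, 16 without ATT-I and 33 without the combination, and the number that rose was 1 or 2 without any 1 library. Mki67-positive cells held more UMIs in every library, for example with a median of 10809 against 6270 UMIs in anti-PD-1. Among cells of 10000 to 20000 UMIs the difference in share was −9.20 points with vehicle, −4.01 with anti-PD-1, −6.45 with ATT-I and −2.70 with both agents, larger than among all cells.

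Rps27, a zinc-finger protein of the small subunit, fell most. It had 34.9 UMIs per 10000 in Mki67-positive against 53.9 in Mki67-negative vehicle cells, 33.5 against 46.1 with anti-PD-1, 50.0 against 96.8 with ATT-I and 30.7 against 48.8 with both agents. The positive cells were lower in each library, by −0.68 log2 (95% interval −0.85 to −0.50, limma adjusted p = 0.000457). Rps27rt followed at −0.60 (limma adjusted p = 0.00874), which its shared sequence leaves uncertain. Rps21, another small subunit protein, fell from 41.8 to 32.2, 36.96 to 29.97, 58.7 to 40.5 and 43.1 to 33.8 (−0.39, limma adjusted p = 0.00151). Rps14, which lines the platform of the small subunit, was at −0.37 and Rpl38 at −0.37.

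Rps27l went the opposite way to its parent. It had 3.17 UMIs per 10000 in Mki67-positive against 1.48 in Mki67-negative vehicle cells, 2.86 against 1.93 with anti-PD-1, 2.44 against 1.18 with ATT-I and 3.41 against 1.88 with both agents. It rose in 4 of 4 libraries by 0.85 log2 (0.61 to 1.09, limma adjusted p = 0.000789). Rpl28 (0.25), Rpl41 (0.17) and Rpsa (0.16) rose as well. In cells of 5000 to 20000 UMIs, 28 genes fell and 0 rose by limma, with 58 at an unadjusted p under 0.05, and Rps27l stood at 0.35 (limma adjusted p = 0.0554). Within CD8 cells, a contrast chosen after seeing the data, vehicle had 7 negative cells and was left out, and 21 genes fell and 1, Rps27l, rose over the other 3 libraries (2.44% and 8.48% of all genes).

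The 2 genes together give a ratio that needs no denominator of all UMIs. Since Rps27 fell and Rps27l rose in each library, its direction largely follows from the values above and is no added evidence. The same holds for the pair's share in the contrasts below. Rps27l made up 10.7% of the UMIs of the Rps27 and Rps27l pair in Mki67-positive and 3.65% in Mki67-negative vehicle cells, 10.1% and 4.61% with anti-PD-1, 6.50% and 1.80% with ATT-I, and 11.6% and 4.98% with both agents. The share was between 2.19 and 3.61 times higher in the positive cells. Among cells of 5000 to 20000 UMIs it was between 1.46 and 1.92 times higher, again in 4 of 4 libraries. The difference was thus smaller in this window and had the same direction. Over all depths, Rpl22l1 made up more of its pair with Rpl22 in 4 of 4 libraries, by 1.01 to 1.29 times. Rpl7l1 did so in 3 libraries, and Rps27rt and Rpl36al in 1 each.

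**Figure D5:**
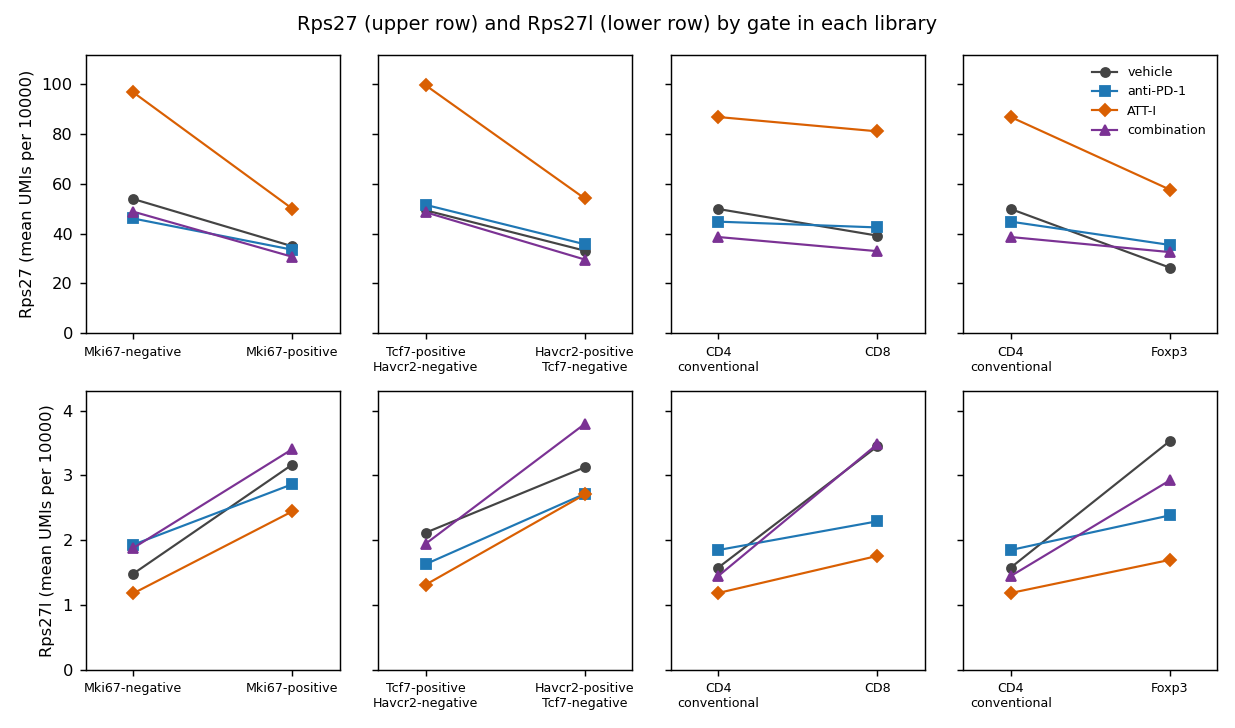
Mean UMIs per 10000 of Rps27 (upper row) and Rps27l (lower row) in the pairs of gates (horizontal axis of each panel), with 1 line per library. In Mki67-positive cells and in Havcr2-positive cells Rps27 is lower and Rps27l higher in each of the 4 libraries.

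CD8 cells held more ribosomal protein RNA, as a share of a cell's UMIs, than CD4 conventional cells. The share was higher by 4.6 points with vehicle, 3.25 with anti-PD-1, 4.96 with ATT-I and 3.51 with both agents. Of 81 genes tested 53 rose and 1 fell, against 11.5% and 16.4% of all 2878 genes, with a median of 0.24 against −0.06. The small subunit had 26 of 31 genes higher and the large subunit 25 of 46. CD8 cells held more UMIs in each library, with a median of 24173 against 7597 UMIs in vehicle. At 10000 to 20000 UMIs the gap was 5.87 points with vehicle, 3.14 with anti-PD-1 and 0.82 with both agents, from at least 10 cells a gate. At 5000 to 20000 UMIs 33 genes passed as higher, and without the combination 30 did.

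Rps27l and Rpl22l1, both paralogues, led this contrast. Rps27l had 3.45 UMIs per 10000 in CD8 and 1.58 in CD4 conventional cells of vehicle, 2.29 and 1.85 with anti-PD-1, 1.76 and 1.18 with ATT-I and 3.48 and 1.45 with both agents (0.78, limma adjusted p = 0.0102, and 0.0560 without the combination). Rpl22l1 had 9.23 and 4.22, 8.44 and 6.75, 9.14 and 7.87, and 8.39 and 5.26 (0.58, limma adjusted p = 0.0201). Rpl22l1 passed in 9 of 13 alternatives, with a limma adjusted p between 0.00908 and 0.122 over them. Its parent Rpl22, a protein known for a role in T cell development, did not pass, at 0.00. Rpl28 was at 0.56 (limma adjusted p = 0.00117), and Rps20 and Rplp0, the base of the ribosomal stalk, at 0.47 each. Rps27 was the gene that fell, at −0.19 (limma adjusted p = 0.0373), lower in 4 of 4 libraries. Its limma adjusted p was 0.137 without vehicle, 0.0713 without ATT-I, 0.144 without the combination and 0.680 in cells of 5000 to 20000 UMIs. Rps14 at −0.08 and Rps27rt at −0.03 were the next lowest and did not pass.

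Between Foxp3 and CD4 conventional cells 2 of the 82 genes passed, Rps27 and Rps27l, where 5.07% of all genes rose and 5.14% fell. At an unadjusted p under 0.05 the count was 11. The share was lower by 0.68, 2.43 and 2.65 points in vehicle, anti-PD-1 and ATT-I and higher by 2.46 points in the combination. Rps27 had 26.3 UMIs per 10000 in Foxp3 and 49.9 in CD4 conventional cells of vehicle, 35.4 and 44.8 with anti-PD-1, 57.7 and 86.9 with ATT-I and 32.6 and 38.6 with both agents (−0.52, limma adjusted p = 0.0132). Rps27l had 3.53 and 1.58, 2.38 and 1.85, 1.70 and 1.18, and 2.92 and 1.45 (0.73, limma adjusted p = 0.0143). Rps27 was lower and Rps27l higher in Foxp3 cells of each library, although vehicle, ATT-I and the combination gave only 22, 22 and 18 such cells. Rps27 had a limma adjusted p of 0.0806 without ATT-I, and Rps27l 0.0891 without the combination and 0.358 in cells of 5000 to 20000 UMIs. Rps2 (0.34, limma adjusted p = 0.0882), Rpl7l1 (0.36), Rps29 (−0.34) and Rps27rt (−0.54) did not pass.

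Tcf7 encodes TCF-1, a factor of naive, memory and stem-like T cells, and Havcr2 encodes TIM-3, a receptor of terminally exhausted ones. Ribosomal protein RNA was a higher share of UMIs in cells with Tcf7 and without Havcr2 than in cells with Havcr2 and without Tcf7. The gap in share was 4.98 points with vehicle, 4.41 with anti-PD-1, 6.66 with ATT-I and 3.49 with both agents. Of 82 genes 50 rose and 1, Rps27l, fell, against 4.85% and 8.81% of all 2848 genes, with a median of 0.25 against −0.12. Each of the 46 large and 31 small subunit genes had a difference above 0. In vehicle both gates had similar depth, with medians of 18976 and 19669 UMIs, while in ATT-I the Tcf7 cells held 7066 and the Havcr2 cells 16503. The number of genes called depended on 1 library most: it was 8 without ATT-I, 27 without anti-PD-1, 46 without vehicle and 44 without the combination. In cells of 5000 to 20000 UMIs it was 7, although the share stayed 2.47 to 5.53 points higher in each library at 10000 to 20000 UMIs.

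Rps27 and its copy had the highest differences here, in cells that overlap those of the contrasts above. Rps27 had 49.4 UMIs per 10000 in Tcf7-positive and 33.1 in Havcr2-positive vehicle cells, 51.6 and 35.7 with anti-PD-1, 99.6 and 54.1 with ATT-I and 48.6 and 29.6 with both agents (0.67, 0.52 to 0.82, limma adjusted p = 0.000593). Rps27rt was at 0.72 (limma adjusted p = 0.00506). Rpl12, which sits at the base of the stalk, was at 0.47, Rps21 at 0.47 and the stalk protein Rplp1 at 0.44, with 50.6 and 36.2 UMIs per 10000 in vehicle. Rps27l had 2.12 and 3.13 with vehicle, 1.63 and 2.72 with anti-PD-1, 1.31 and 2.71 with ATT-I and 1.95 and 3.80 with both agents, lower in the Tcf7-positive cells of each library (−0.79, limma adjusted p = 0.00416). In cells of 5000 to 20000 UMIs it was at −0.74 (limma adjusted p = 0.131). As a share of the pair's UMIs it was 5.80% in Tcf7-positive against 11.9% in Havcr2-positive vehicle cells, and 2.25% against 7.0% with ATT-I. Rps2 at 0.00 and Rpl3, of the large subunit's core, at 0.02 did not pass.

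Within CD8 cells, a subset of the cells just compared, Rps27 and Rps27l had the same directions, while fewer genes passed. There 10 genes rose and Rps27l fell, against 2.5% and 4.74% of all 2764 genes, and 40 of the 82 had an unadjusted p under 0.05. Rps27 was at 0.69 (limma adjusted p = 0.018) and Rps27l at −0.97 (limma adjusted p = 0.00939), each in the same direction in 4 of 4 libraries. Rps27l made up 6.41% of the pair's UMIs in Tcf7-positive and 13.7% in Havcr2-positive CD8 cells of vehicle (11 and 15 cells), 3.80% and 9.01% with anti-PD-1 (1147 and 2848 cells), 1.36% and 7.35% with ATT-I (44 and 23) and 8.47% and 13.3% with both agents (19 and 55). Rps21 (0.46) and Rplp1 (0.45) passed too. Rpl28 at −0.07 did not. Leaving out a library left 5 genes higher without vehicle, 1 without anti-PD-1, 1 without ATT-I and 2 without the combination.

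The other lists around the ribosome are given as counts beside the shares of all genes tested. Other mRNAs with a TOP start, such as translation factors, had 7 of 18 higher and 1 lower in CD8 against CD4 conventional cells (11.5% and 16.4% of all genes), 2 higher and 1 lower with Tcf7 against Havcr2 (4.85% and 8.81%), and 1 higher and 2 lower with Mki67 (15.9% and 7.92%). Ribosome biogenesis genes, which process ribosomal RNA and assemble subunits, had 4 of 11 higher in CD8 cells (median 0.46, against 0.24 for the ribosomal protein genes) and 2 of 10 higher in Foxp3 cells (5.07% of all genes). With Tcf7, 1 of 13 was lower and 0 higher (median −0.22, all genes −0.12). Mitochondrial ribosomal protein genes, which build the separate ribosome of mitochondria, had 7 of 40 higher and 0 lower with Mki67 (median 0.19), and that count is near the 15.9% of all genes that were higher.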

How the data were processed

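Single-cell RNA was measured by droplet sequencing in 4 libraries, 1 per treatment group, each from pooled tumours. The deposited table holds natural log values: per the table's own values, the authors divided a cell's UMIs by its total, multiplied by 10000, added 1, took the natural log, subtracted 1 constant per library (between 0.153 and 0.249) and set values under 0 to 0. Cell Ranger, Seurat and build mm10 are listed, with no versions, per the submitters' processing notes, and cell calling, doublet removal and cell filters are not given in the sources used here. Whole UMI counts were recovered from these values, with 100% of values within 0.02 of a whole number. In 21 vehicle, 37 anti-PD-1 and 37 combination cells a single UMI had been set to 0. No doublet caller was run.

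A gene's level is its mean number of UMIs per 10000 over cells. Libraries were compared by the log2 ratio of levels with a 95% counting interval and no test, and a gene was called past a log2 ratio of 0.32. Gates needed at least 10 cells and read 1 UMI of a gene, so that depth and free RNA bear on them. Gate contrasts were fitted with limma 3.58.1 in R 4.3.3 on log2 (level + 0.1), over genes of at least 0.5 UMIs per 10000, with the library as a block because both gates come from the same library. The fit was tested on simulated data. Other steps used Python 3.11.15, numpy 2.4.6, scipy 1.17.1 and pandas 2.3.3. Positions and lengths are from GENCODE M21 (GRCm38).

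The named genes were the 3 with the highest level, the paralogues with their parents, Rps19bp1 and the 3 highest and 3 lowest of each comparison. Others (such as Rps29 and Rpl36al in a comparison they did not lead) were named after their values were seen. A gene that the rule also named and a marker gene are not reported here. The members and lists were chosen with earlier results of these data known. Alternatives were leaving out each library, another pseudocount, no filter, no block, summed UMIs, stricter or thinned gates, a depth window, another denominator, another fold threshold and centring on all genes.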

Additional observations from a re-analysis of the deposited data

How the results depend on the processing

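With 1 library per group, no alternative can show whether a difference between groups would recur, and small gates (from 11 cells) limit the precision in vehicle, ATT-I and the combination. The share of ribosomal protein UMIs (vehicle, then anti-PD-1, ATT-I, combination) was 24.3%, 29.3%, 31.8% and 24.1% for summed UMIs, 21.2%, 29.8%, 33.5% and 21.6% at 5000 to 20000 UMIs, 22.4%, 28.9%, 32.0% and 23.2% without the paralogues and Rps19bp1, and 31.9, 43.4, 53.1 and 32.8 per 100 other UMIs when ribosomal protein and mitochondrially encoded UMIs left the denominator. The difference of Foxp3 and CD4 conventional cells in vehicle turned to 2.58 points for summed UMIs and 0.29 with gates at 2 UMIs. No paired analysis was possible because the groups have 1 library each.

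At 1.5-fold the counts higher and lower were 24 and 5 (anti-PD-1 against vehicle), 24 and 2 (ATT-I against vehicle), 0 and 0 (combination against vehicle), 7 and 15 (combination against anti-PD-1) and 5 and 23 (combination against ATT-I). Centred on all genes, 5 were lower for anti-PD-1, 1 for ATT-I, and 9 higher for the combination against vehicle. At 5000 to 20000 UMIs 6 were lower for anti-PD-1, 1 for ATT-I, and 7 higher for the combination against anti-PD-1, or 6 within CD8 cells, where 19 were lower for the combination against vehicle. ATT-I had 2 lower with the other denominator. The combination against vehicle had 0 higher for summed UMIs and 1 lower with each detected gene kept. Rps19bp1 in ATT-I turned to 0.22 at 5000 to 20000 UMIs and 0.026 centred, and Rps27l, combination against anti-PD-1, to −0.38 at that depth and −0.079 within its CD8 cells.

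For Mki67 (5 higher, 29 lower), 1 and 7 passed without a filter, 1 and 49 with thinned gates, 1 was higher for summed UMIs, with the other denominator and within CD8 cells, and 0 at 5000 to 20000 UMIs. Leaving out a library gave 1 to 2 higher and 16 to 33 lower. CD8 against CD4 conventional (53 and 1) gave 9 and 0 without a filter, 33 and 0 at 5000 to 20000 UMIs, 0 lower with thinned gates, gates at 2 UMIs or the other denominator, and 30 to 48 higher and 0 to 1 lower without a library. Foxp3 (1 and 1) gave 0 and 0 without a filter or with thinned gates, 2 higher for summed UMIs, 0 higher at 5000 to 20000 UMIs (3 libraries), 2 lower with the other denominator, and 0 to 1 higher and 0 to 3 lower without a library. Tcf7 against Havcr2 (50 and 1) gave 0 and 0 without a filter, 7 and 0 with thinned gates or at 5000 to 20000 UMIs, and 8 to 46 higher and 1 lower without a library. In CD8 cells (10 and 1) that contrast gave 0 and 0 without a filter or with gates at 2 UMIs (3 libraries), and 1 to 5 higher without a library. It was not run with thinned gates or at 5000 to 20000 UMIs, where fewer than 3 libraries had enough cells. Without the replicate block for the library, 1 was higher and 0 lower for Mki67, and 0 and 0 in each other contrast, where the differences between libraries enter the residual by construction. For the other counts that moved, the cause was not tested.

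Among the genes named here, the called values that turned sign were those of Rps19bp1 and Rps27l above. The others that did had not passed. In CD8 against CD4 conventional cells Rpl22 (−0.027 without vehicle) went to 0.022 without ATT-I, 0.0098 without the combination, 0.0095 summed, 0.089 with the other denominator and 0.055 centred, Rps27rt (−0.099 without ATT-I) to 0.030 without the combination, 0.0010 with thinned gates, 0.19 at 5000 to 20000 UMIs, 0.071 with the other denominator and 0.033 centred, and Rps14 to 0.012 with that denominator. Rps2 went from 0.34 to −0.018 with Foxp3 at 5000 to 20000 UMIs, and with Tcf7 to −0.038 without vehicle, −0.013 without anti-PD-1 and −0.021 without the combination. With Tcf7 in CD8 cells Rpl28 went to 0.072 with gates at 2 UMIs, 0.079 with the other denominator and 0.067 centred.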

Other observations

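Of 28 ribosome biogenesis genes that passed, 5 were higher and 9 lower in anti-PD-1 against vehicle (median −0.10) and 2 and 10 in ATT-I against vehicle (−0.25). Of all genes 15.2% were higher and 51.1% lower in the first comparison and 9.7% and 53.6% in the second, so the counts of higher genes lay near those of all genes. In the combination against vehicle 15 of 29 were higher and 1 lower, against 13.3% and 32.2% of all genes. Against ATT-I, 21 were higher and 0 lower in the combination (45.3% and 15.8% of all genes, median 0.60), where the ribosomal protein genes had a median of −0.49 and all genes one of 0.25. Other TOP mRNAs had 12 of 18 higher and 1 lower in anti-PD-1, 12 and 0 in ATT-I and 2 and 1 in the combination, each against vehicle. Mitochondrial ribosomal protein genes had 34 of 77 higher and 3 lower in anti-PD-1, and 10 higher and 11 lower in ATT-I, each against vehicle, where the shares of all genes are those given above. These are counts between single libraries that share the vehicle sample, with no test.

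Among the pseudogenes left out, Rpl27-ps3 and Rpl13a-ps1 were low in anti-PD-1, as their parent genes were. Rpl27-ps3 had 1.41 UMIs per 10000 with vehicle, 0.591 with anti-PD-1, 1.73 with ATT-I and 1.13 with both agents. Rpl13a-ps1 had 0.0490, 0.0161, 0.134 and 0.0270, from 13, 161, 31 and 17 UMIs. Reads of a pseudogene and its parent may be assigned to either, so these values are uncertain.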
